A study of Homo sapiens with 2 samples.

Results

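SERPINB2, SERPINB3, SERPINB4, SERPINB5, SERPINB7 and SERPINB13 are 6 clade B serpins that lie together on the long arm of chromosome 18, and they were taken by symbol, as 6 of 36601 measured genes. RNA of single cells was measured in RWPE-ERG-mAKT and in RWPE1, with 1 library for each. RWPE1 is an immortalised line of normal human prostate epithelium. RWPE-ERG-mAKT is RWPE1 that was made to express the transcription factor ERG, from a modified pLHCX retroviral vector in which the HNRNPA2B1 promoter replaces the CMV promoter, and AKT1 with a myristoyl signal and a Flag tag, from pBabe-Puro, a form that is active without upstream signal. Transduced cells were kept in hygromycin and puromycin. The RWPE1 library is labelled as carrying vector only. RWPE-ERG-mAKT differs from it by both transgenes together, so the part of ERG and the part of AKT cannot be told apart. With 1 library for each line no test between lines was possible, and all intervals are 95% intervals that cover counting error only.

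Serpins are inhibitors that catch a protease by offering it a bait, the reactive centre loop, and then folding around the cut loop. Clade B members lack a classical signal peptide and act largely inside cells or after release from them. In stratified epithelia such as epidermis and oesophagus several of them are made by keratinocytes as these mature, and SERPINB3 and SERPINB4 are known as the squamous cell carcinoma antigens. Normal prostate epithelium is glandular and not squamous.

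The sequences show 1 thing that bears on every value of SERPINB3 and SERPINB4, which is how alike they are. The coding sequences of both are 1170 bases long in GENCODE 29, and 56 of the 1170 aligned bases differ, which leaves 95.2% identity. Over the last 300 bases of the transcripts, where 3′ libraries read, identity was 96.3%. The other 14 member pairs shared 51.2% to 66.4% of aligned coding bases. The 90 coding bases in which the pair differs most, with 12 differences, are coding bases 967 to 1056 and run into the part that encodes the reactive centre loop. They are given 5′ to 3′ on the minus strand of GRCh38, at chr18:63655774-63655863 for SERPINB3 and chr18:63637836-63637925 for SERPINB4, with differing bases in capitals.
SERPINB3: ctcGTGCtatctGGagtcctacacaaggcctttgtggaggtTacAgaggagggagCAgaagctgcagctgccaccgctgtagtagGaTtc
SERPINB4: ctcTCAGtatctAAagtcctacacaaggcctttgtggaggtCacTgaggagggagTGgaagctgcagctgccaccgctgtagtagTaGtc

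The pair was as alike in front of the genes. In RefSeq promoter windows of 300 bases (GRCh38.p14), 4 bases differed, or 98.7% identity, and 1 of these lay in the outermost 180 bases. These are given for the minus strand, at chr18:63661964-63662143 for SERPINB3 and chr18:63644327-63644506 for SERPINB4, with that base in capitals.
SERPINB3: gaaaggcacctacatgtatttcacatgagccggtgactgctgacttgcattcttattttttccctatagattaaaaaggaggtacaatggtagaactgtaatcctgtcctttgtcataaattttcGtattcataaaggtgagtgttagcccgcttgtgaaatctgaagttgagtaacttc
SERPINB4: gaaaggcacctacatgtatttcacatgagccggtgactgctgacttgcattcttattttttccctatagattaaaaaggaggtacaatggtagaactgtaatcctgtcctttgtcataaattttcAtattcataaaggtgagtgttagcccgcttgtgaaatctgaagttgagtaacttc

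The promoter windows of the other members held a different common feature. Sites of AP-1, the dimer of FOS and JUN proteins, were searched with the loose pattern TGANTCA, where N is any base. As a pattern it reads the same on both strands. Letters that fit it stood in windows of 4 of 6 members, and in 5 of their 8 RefSeq windows, since SERPINB7 has 3 starts. Of all 34943 promoter windows of the same length 7.72% held it. SERPINB3 and SERPINB4 had none. In the matches printed below the middle base is A for SERPINB5 and SERPINB2, C for SERPINB13 and G for SERPINB7. The pattern counts all of these alike. The windows below run along the plus strand of GRCh38.p14 with the matching letters in capitals, and lie at chr18:63476801-63476829 for SERPINB5, chr18:63587245-63587273 for SERPINB13, chr18:63775368-63775396 and chr18:63777725-63777753 for SERPINB7, and chr18:63887592-63887620 for SERPINB2.
SERPINB5: taacttcagccTGAATCAtttctttcaat
SERPINB13: tcgagagatgcTGACTCAgttggtctggg
SERPINB7 start in the middle: gtgctgtgctcTGAGTCAtagggaagcca
SERPINB7 start further in: tagggagtgtcTGAGTCAgaggctttata
SERPINB2: gagtaaaatgtTGAATCActcaaaggaca

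Other motifs were searched on both strands. The ETS core GGAAGT, the kind of site that ERG binds, was found for 1 of 6 members, SERPINB7, and in 22.8% of all windows. The TATA box letters TATAAA were found for 3 members and in 11.6% of all windows, and the p63 core letters CATGNC for 3 members and in 31.9%. A match describes letters and not a bound site.

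The values come from cells with over 2500 genes and less than 7.5% of UMIs from mitochondria, 14140 of 17355 barcodes in RWPE-ERG-mAKT and 9967 of 12504 in RWPE1, both from a stated input of 10000 cells. They held 225121037 and 192789925 UMIs, with medians of 13601 and 16972 UMIs per cell. ERG, the transgene, had 4680 UMIs in RWPE-ERG-mAKT against 278 in RWPE1, a log2 ratio of 3.85 (3.67 to 4.03). AKT1 had 19.1 CPM in RWPE-ERG-mAKT and 22.0 CPM in RWPE1, where CPM is counts per 1000000 UMIs of the kept cells, a log2 ratio of -0.20 (-0.26 to -0.14). The AKT1 counts thus do not show the AKT transgene. Both lines had the basal keratins that mark this cell type, with KRT5 at 2008 CPM in RWPE-ERG-mAKT and 2081 CPM in RWPE1. Barcodes with at least 2 UMIs of choroid plexus or of microglia genes, called brain-type here, numbered 0 in RWPE-ERG-mAKT and 53 in RWPE1, of which 5 were among the kept cells. The files shared 55 barcodes. Without the brain-type barcodes the median log2 ratio of the members was 1.73, and without the shared barcodes it was also 1.73.

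All 6 members were higher in RWPE-ERG-mAKT than in RWPE1, and 5 of 6 were more than 2-fold higher. Of the 17995 genes with at least 100 UMIs over both libraries, 11.1% were more than 2-fold higher and 42.7% were higher by any amount. None of the members was more than 2-fold lower, against 18.8% of all genes. The members' median log2 ratio was 1.73, against -0.16 for all genes tested. Scaling by the median of gene ratios in place of the library total moves every log2 ratio up by 0.14. These counts describe 2 libraries and say nothing of how other cultures of these lines would differ.

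**Figure D1:**
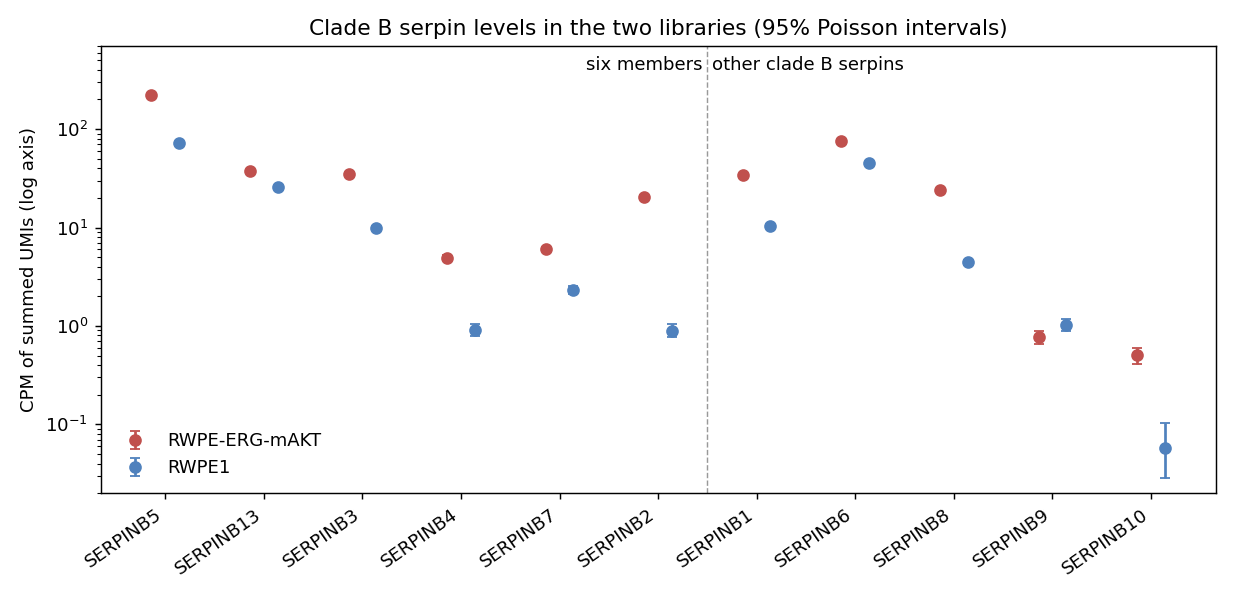
Levels of the 6 members (left of the dashed line) and of the other tested clade B serpins, in CPM of summed UMIs on a log axis, with RWPE-ERG-mAKT in red and RWPE1 in blue and 95% Poisson intervals as bars, often narrower than the point. Red lies above blue for all 6 members, with the widest gap for SERPINB2 (20.7 CPM against 0.897 CPM) and the narrowest for SERPINB13 (37.3 CPM against 25.9 CPM).

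SERPINB5, or maspin, is a clade B serpin that does not inhibit proteases and is known as a suppressor of invasion in mammary epithelium. It had 49803 UMIs, or 221 CPM (219 to 223), in RWPE-ERG-mAKT, against 13810 UMIs, or 71.6 CPM (70.4 to 72.8), in RWPE1. The log2 ratio was 1.63 (1.60 to 1.65), a 3.09-fold higher level. Since deeper cells show more genes, each cell was thinned to 5000 UMIs before cells were counted, which left out 6 cells of RWPE-ERG-mAKT and 0 of RWPE1. At that depth 58.5% (57.7 to 59.3) of RWPE-ERG-mAKT cells had a SERPINB5 UMI, against 27.0% (26.1 to 27.9) of RWPE1 cells. Without thinning the shares were 84.6% and 60.1%. At 5000 UMIs positive cells also carried more of it, with a mean of 1.87 UMIs in RWPE-ERG-mAKT and 1.43 UMIs in RWPE1.

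The share of SERPINB5-positive cells in RWPE1 carries a reservation. Brain-type barcodes of RWPE1 should lack the gene, and at 500 UMIs 11 of 53 of them held a UMI of it, or 20.8% (10.8 to 34.1), against 3.75% (3.39 to 4.15) of kept RWPE1 cells at the same depth. Their median depth before thinning was 617 UMIs, against 16972 UMIs for the kept cells. At this depth the share in kept cells did not exceed that in barcodes that should lack the gene. The 2 kinds of barcode differ this much in depth, and the part of free RNA in the SERPINB5 shares was not tested. KRT5 was found in 33.96% of the brain-type barcodes and in 61.5% of kept RWPE1 cells. The other 5 members were in 0 of 53 of these barcodes. The interval of that reaches up to 6.72%, more than any of their shares in kept cells at that depth. No such barcodes were available in RWPE-ERG-mAKT.

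SERPINB2, plasminogen activator inhibitor type 2, inhibits the urokinase PLAU and the tissue activator PLAT. It differed most between the libraries of all members. SERPINB2 had 4650 UMIs, or 20.7 CPM (20.1 to 21.3), in RWPE-ERG-mAKT, against 173 UMIs, or 0.897 CPM (0.769 to 1.04), in RWPE1. The log2 ratio was 4.52 (4.31 to 4.75), a 23.02-fold higher level, and rank 82 from the top among all genes tested. At 5000 UMIs per cell 6.18% (5.79 to 6.59) of RWPE-ERG-mAKT cells were positive, against 0.301% (0.203 to 0.429) of RWPE1 cells, and without thinning 13.1% and 0.933%. The 1% of RWPE-ERG-mAKT cells with most SERPINB2 held 32.2% of its UMIs, while the deepest 1% of cells held 2.86% of all UMIs. In RWPE1 all of its UMIs came from 93 cells, and 2 cells held 47 of the 173, or 27.2%. SERPINB2 was thus unevenly spread in both lines. With the study's limits of 200 to 2500 genes in place of the cells used here its log2 ratio was 0.20 (-0.90 to 1.55), from 97 UMIs in RWPE-ERG-mAKT and 7 in RWPE1.

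The proteases that SERPINB2 acts on differed less than SERPINB2 and not in 1 direction. PLAU was lower, with 7.88 CPM in RWPE-ERG-mAKT and 13.6 CPM in RWPE1 (log2 ratio -0.79, -0.87 to -0.70). PLAT was slightly higher, with 2.27 CPM in RWPE-ERG-mAKT and 1.95 CPM in RWPE1 (0.22, 0.02 to 0.41). PLAUR, the receptor that holds urokinase at the cell surface, had 14.4 CPM in RWPE-ERG-mAKT and 14.3 CPM in RWPE1 (0.01).

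SERPINB3 inhibits the papain-like cathepsins L, S and K, and SERPINB4 inhibits the chymotrypsin-like cathepsin G and mast cell chymase. SERPINB3 had 7911 UMIs, or 35.1 CPM (34.4 to 35.9), in RWPE-ERG-mAKT, against 1899 UMIs, or 9.85 CPM (9.41 to 10.3), in RWPE1. The log2 ratio was 1.83 (1.76 to 1.91), or 3.57-fold. SERPINB4 had 1110 UMIs, or 4.93 CPM (4.64 to 5.23), in RWPE-ERG-mAKT, against 176 UMIs, or 0.913 CPM (0.783 to 1.06), in RWPE1. Its log2 ratio was 2.43 (2.20 to 2.67), or 5.401-fold. Reads from sequence that the 2 genes share cannot be assigned to 1 of them, so the split between them is uncertain. Their sum, which still misses reads that fitted both and were dropped, was 40.1 CPM in RWPE-ERG-mAKT and 10.8 CPM in RWPE1, a log2 ratio of 1.90 (1.83 to 1.97). SERPINB4 made up 12.3% (11.6 to 13.0) of this sum in RWPE-ERG-mAKT and 8.48% (7.32 to 9.76) in RWPE1.

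SERPINB3-positive cells at 5000 UMIs were 10.4% (9.91 to 10.9) in RWPE-ERG-mAKT and 3.58% (3.23 to 3.97) in RWPE1. SERPINB4-positive cells were 2.07% (1.84 to 2.32) in RWPE-ERG-mAKT and 0.421% (0.304 to 0.569) in RWPE1. Without thinning the shares were 22.1% in RWPE-ERG-mAKT and 12.0% in RWPE1 for SERPINB3, and 5.18% and 1.41% for SERPINB4. A small number of cells carried large amounts of SERPINB3 in both lines, up to 54 UMIs in 1 cell of RWPE-ERG-mAKT and up to 67 UMIs in 1 cell of RWPE1 before thinning. The 1% of cells with most SERPINB3 held 26.7% of its UMIs in RWPE-ERG-mAKT and 29.2% in RWPE1. The 10% of cells with most of it held 78.4% in RWPE-ERG-mAKT and 89.7% in RWPE1, and cells with 10 or more UMIs numbered 118 in RWPE-ERG-mAKT, with 24.005% of its UMIs, and 6 in RWPE1, with 9.16%.

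SERPINB13, known as headpin or hurpin, inhibits cathepsins L and K. SERPINB13 had 8391 UMIs, or 37.3 CPM (36.5 to 38.1), in RWPE-ERG-mAKT, against 4994 UMIs, or 25.9 CPM (25.2 to 26.6), in RWPE1. The log2 ratio was 0.52 (0.47 to 0.58), or 1.44-fold, and SERPINB13 was the 1 member under 2-fold. The share of positive cells did not move with this level. At 5000 UMIs it was 11.3% (10.8 to 11.8) in RWPE-ERG-mAKT and 11.1% (10.5 to 11.7) in RWPE1, with a log2 ratio of shares of 0.03 (-0.08 to 0.14), an interval that does not show the shares to be equal. Without thinning the share was 23.1% in RWPE-ERG-mAKT and 30.9% in RWPE1, where cells were deeper. At 5000 UMIs positive cells held a mean of 1.48 UMIs in RWPE-ERG-mAKT and 1.19 UMIs in RWPE1. At that depth at least 2 UMIs were found in 3.19% of RWPE-ERG-mAKT cells and 1.57% of RWPE1 cells, and at least 5 UMIs in 32 cells and 5 cells. With the study's limits of 200 to 2500 genes SERPINB13 was lower in RWPE-ERG-mAKT, with a log2 ratio of -0.82 (-1.42 to -0.17). In the barcodes that the limits used here left out it had 23.5 CPM in RWPE-ERG-mAKT and 36.4 CPM in RWPE1. In those left out for mitochondrial UMIs alone SERPINB13 was higher in RWPE-ERG-mAKT, with a log2 ratio of 1.16 (0.83 to 1.47). Its most loaded 1% of cells held 20.5% of its UMIs in RWPE-ERG-mAKT and 13.1% in RWPE1.

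The cathepsins that these members inhibit differed less than the members. CTSL had 33.1 CPM in RWPE-ERG-mAKT and 29.1 CPM in RWPE1 (log2 ratio 0.19), CTSS 0.529 CPM and 0.451 CPM (0.23), and CTSK 1.42 CPM and 1.17 CPM (0.28). CTSV, the close relative of CTSL, had 56.5 CPM in RWPE-ERG-mAKT and 85.2 CPM in RWPE1 (-0.59). CTSB had 51.1 CPM and 45.8 CPM (0.16), and CTSH 24.6 CPM and 38.0 CPM (-0.63). CTSG and CMA1, the proteases inhibited by SERPINB4, had 0 UMIs in both libraries, and the neutrophil elastase gene ELANE had 1 and 2 UMIs. Among all genes tested 11.1% were more than 2-fold higher and 18.8% more than 2-fold lower. Of the 11 tested proteases on the list 0 were more than 2-fold higher and 1 was more than 2-fold lower, with a median log2 ratio of 0.16. The 1 was KLK5, a kallikrein that sheds epidermal cells, at 1.75 CPM in RWPE-ERG-mAKT and 12.6 CPM in RWPE1 (-2.85). KLK7, which acts beside it, had 1.88 CPM in RWPE-ERG-mAKT and 1.29 CPM in RWPE1 (0.54).

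SERPINB7, or megsin, is made in epidermis, and loss of it causes a palmoplantar keratosis. SERPINB7 had 1365 UMIs, or 6.06 CPM (5.75 to 6.39), in RWPE-ERG-mAKT, against 452 UMIs, or 2.34 CPM (2.13 to 2.57), in RWPE1. The log2 ratio was 1.37 (1.22 to 1.53), or 2.59-fold. At 5000 UMIs 2.38% (2.13 to 2.64) of RWPE-ERG-mAKT cells were positive, against 1.35% (1.14 to 1.60) of RWPE1 cells, and without thinning 7.496% and 3.55%. After thinning to 5000 UMIs positive cells of either line held little more than 1 UMI of SERPINB7 each. The means were 1.07 UMIs in RWPE-ERG-mAKT and 1.11 UMIs in RWPE1, and no cell reached 5 UMIs. Before thinning 1 cell held up to 7 UMIs in RWPE-ERG-mAKT and up to 5 UMIs in RWPE1. As a mean over cells of UMIs per 10000, which gives each cell the same weight, the log2 ratio of SERPINB7 was 0.89, under 2-fold.

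**Figure D2:**
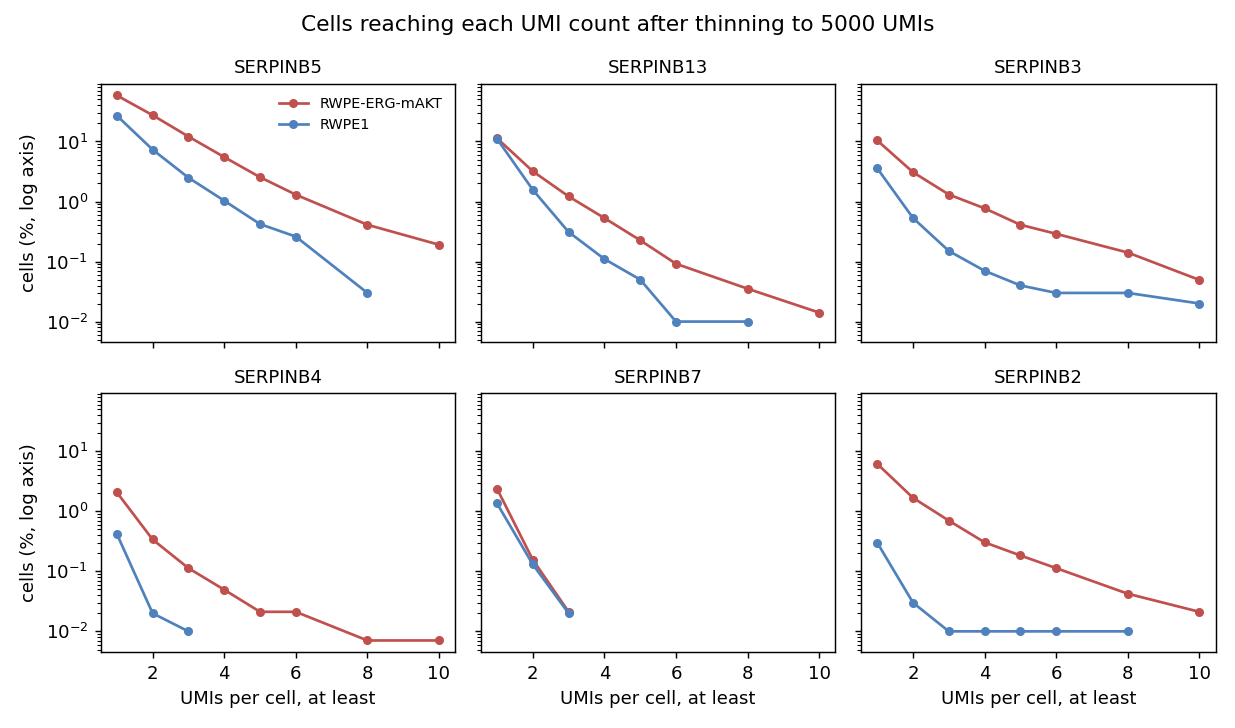
Percent of cells (log axis) that reached at least the number of UMIs on the x axis, for each member after every cell was thinned to 5000 UMIs, in RWPE-ERG-mAKT (red, 14134 cells) and RWPE1 (blue, 9967 cells); counts of 0 cells are not drawn. For SERPINB13 the lines start together at 1 UMI (11.3% and 11.1%) and part above it, while for SERPINB2 (6.18% and 0.301%) they are apart from the start.

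The rest of clade B gave similar values. Of its other 7 genes 5 could be tested, and 3 of 5 were more than 2-fold higher and 0 were more than 2-fold lower, with a median log2 ratio of 1.74. Among all genes tested 11.1% were more than 2-fold higher and 18.8% more than 2-fold lower. SERPINB8, an inhibitor of furin at the end of the same chromosome 18 cluster, had 23.9 CPM in RWPE-ERG-mAKT and 4.41 CPM in RWPE1 (log2 ratio 2.44). SERPINB10, which overlaps SERPINB2 on the same strand by 6717 bases, had 113 UMIs in RWPE-ERG-mAKT and 11 UMIs in RWPE1 (3.14), and reads in the overlap may belong to either. SERPINB11 had 19 and 6 UMIs, and SERPINB12 had 2 and 3 UMIs. SERPINB11 overlaps the whole 6767 bases of SERPINB3 on the other strand. Clade B genes of chromosome 6 did not all move alike. SERPINB1, an inhibitor of neutrophil proteases, had 34.4 CPM in RWPE-ERG-mAKT and 10.3 CPM in RWPE1 (1.74), SERPINB6 had 75.4 CPM and 45.3 CPM (0.74), and the granzyme B inhibitor SERPINB9 had 0.768 CPM and 1.03 CPM (-0.42). Of 8 tested serpins of other clades 1 was more than 2-fold higher and 1 was more than 2-fold lower, with a median of -0.42. SERPINE2, an inhibitor of thrombin and urokinase, had 20.9 CPM in RWPE-ERG-mAKT and 39.99 CPM in RWPE1 (-0.94). The 1 that was higher was SERPINA3, named after its values were seen, at 12.3 CPM and 0.192 CPM (5.996), and the 1 that was lower was SERPINF2, likewise, at 0.329 CPM and 1.78 CPM (-2.44).

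The 6 members span 427.13 kb of chromosome 18, from base 63476761 to base 63903890 of GRCh38 by GENCODE 29 genes. Genes next to them that are not serpins were also mostly higher. Of 15 other tested genes that start within 2 Mb of SERPINB5, 5 were more than 2-fold higher and 0 were more than 2-fold lower, with a median log2 ratio of 0.72 and a range of -0.61 to 2.44. Among all genes tested 11.1% were more than 2-fold higher and 18.8% more than 2-fold lower. VPS4B, an ATPase of membrane scission at -54.3 kb from the SERPINB5 start, had 108 CPM in RWPE-ERG-mAKT and 51.8 CPM in RWPE1 (1.06). KDSR, a sphingolipid enzyme, had 101 CPM and 61.5 CPM (0.71). Both come from a shorter list of neighbours, and among the 15 genes others had larger ratios, such as ZCCHC2, named after its values were seen (1.51). Over the 285 tested genes of chromosome 18 the median log2 ratio was 0.21, rank 2 of the 22 autosomes, and 21.1% were more than 2-fold higher. Of the members, SERPINB13 was below the median of these 15 neighbours and the other 5 were above it. A difference in gene copy number between the lines was not tested.

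**Figure D3:**
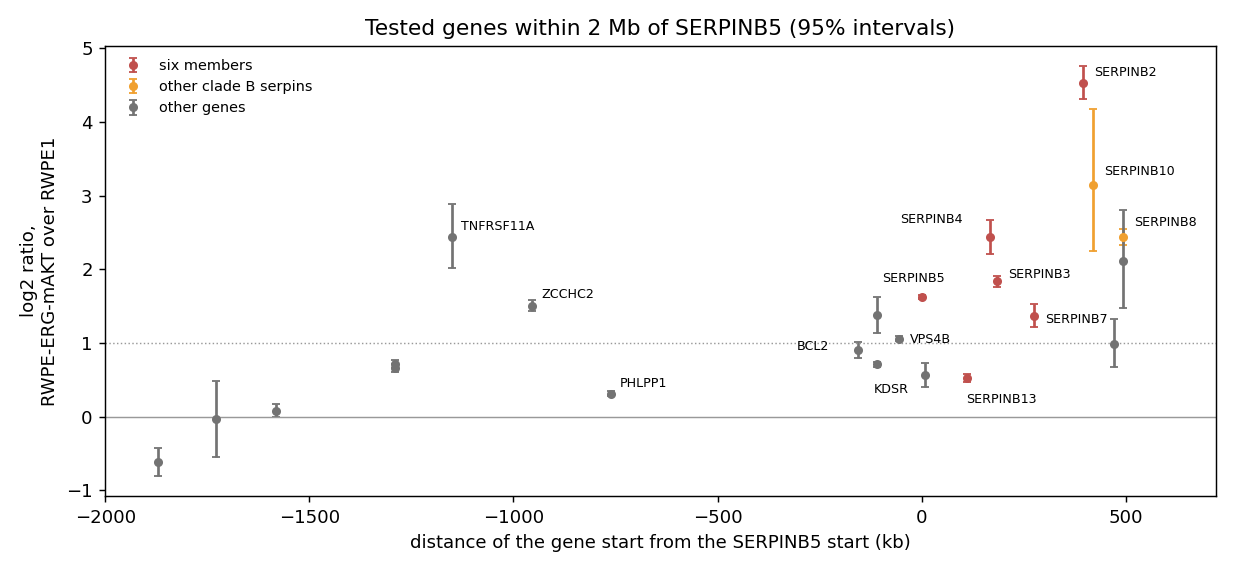
Log2 of the level in RWPE-ERG-mAKT over that in RWPE1 against the distance in kb of each gene's start from the start of SERPINB5, for tested genes within 2 Mb, with 95% intervals for counting error; members are red, other clade B serpins orange and other genes grey. Nearly all points lie above 0, SERPINB2 stands highest (4.52) and SERPINB13 (0.52) lies among the grey points.

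Whether the members were found in the same cells was measured at 5000 UMIs per cell, as the number of cells with both genes of a pair over the number that would follow from the 2 shares alone. In RWPE-ERG-mAKT the interval of this ratio lay above 1 for 12 of 15 pairs, and in RWPE1 for 4 of 15, where far fewer cells were positive. It lay below 1 for 0 pairs in either. No share over other gene pairs is given, so these counts have no background and do not show the members to be special. SERPINB3 and SERPINB4 were the closest pair in RWPE-ERG-mAKT, with 137 cells holding both, 4.49 (3.77 to 5.31) times the expected number, and in RWPE1 12 cells did, 7.98 (4.12 to 13.9) times the expected number. Molecules of 1 gene assigned to the other would add to both counts, and their part was not tested. Pearson's r of log2(1 + UMIs) across cells was 0.24 for this pair in RWPE-ERG-mAKT and 0.17 in RWPE1. Over all 15 pairs the median r was 0.05 in RWPE-ERG-mAKT (14134 cells) and 0.02 in RWPE1 (9967 cells).

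In RWPE-ERG-mAKT the interval lay above 1 for SERPINB2 and for SERPINB13 with each of the 5 other members. SERPINB2 met the others at 1.34 (1.24 to 1.44) times with SERPINB5, 1.497 (1.26 to 1.77) times with SERPINB3, 1.55 (1.03 to 2.24) times with SERPINB4 and 2.41 (1.79 to 3.18) times with SERPINB7. SERPINB13 met SERPINB2 at 2.36 (2.07 to 2.68) times the expected number, SERPINB5 at 1.17 (1.10 to 1.24) times, SERPINB7 at 2.03 (1.60 to 2.53) times, SERPINB3 at 1.92 (1.71 to 2.14) times and SERPINB4 at 1.72 (1.30 to 2.23) times. In RWPE1 the ratio of SERPINB13 was 1.79 (1.40 to 2.26) with SERPINB3 and 2.58 (1.33 to 4.50) with SERPINB4. Of SERPINB2-positive RWPE-ERG-mAKT cells 26.7% also held SERPINB13, against 10.3% of SERPINB2-negative ones.

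For SERPINB5 with SERPINB3 and with SERPINB4 the interval held 1 in both libraries. It met SERPINB3 at 0.985 (0.920 to 1.05) times the expected number in RWPE-ERG-mAKT and 1.01 (0.817 to 1.23) times in RWPE1, with r of 0.00 in both. It met SERPINB4 at 0.997 (0.854 to 1.16) times in RWPE-ERG-mAKT and 0.618 (0.248 to 1.27) times in RWPE1. For SERPINB5 with SERPINB7 it lay above 1 in both. They met in RWPE-ERG-mAKT at 1.15 (1.005 to 1.31) times the expected number and in RWPE1 at 2.47 (1.99 to 3.04) times. Of SERPINB7-positive cells 67.3% held SERPINB5 in RWPE-ERG-mAKT, against 58.3% of SERPINB7-negative ones, and 66.7% did in RWPE1, against 26.4%. A share of SERPINB5 as high as the 58.5% of RWPE-ERG-mAKT cells limits how far the ratio can rise there.

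**Figure D4:**
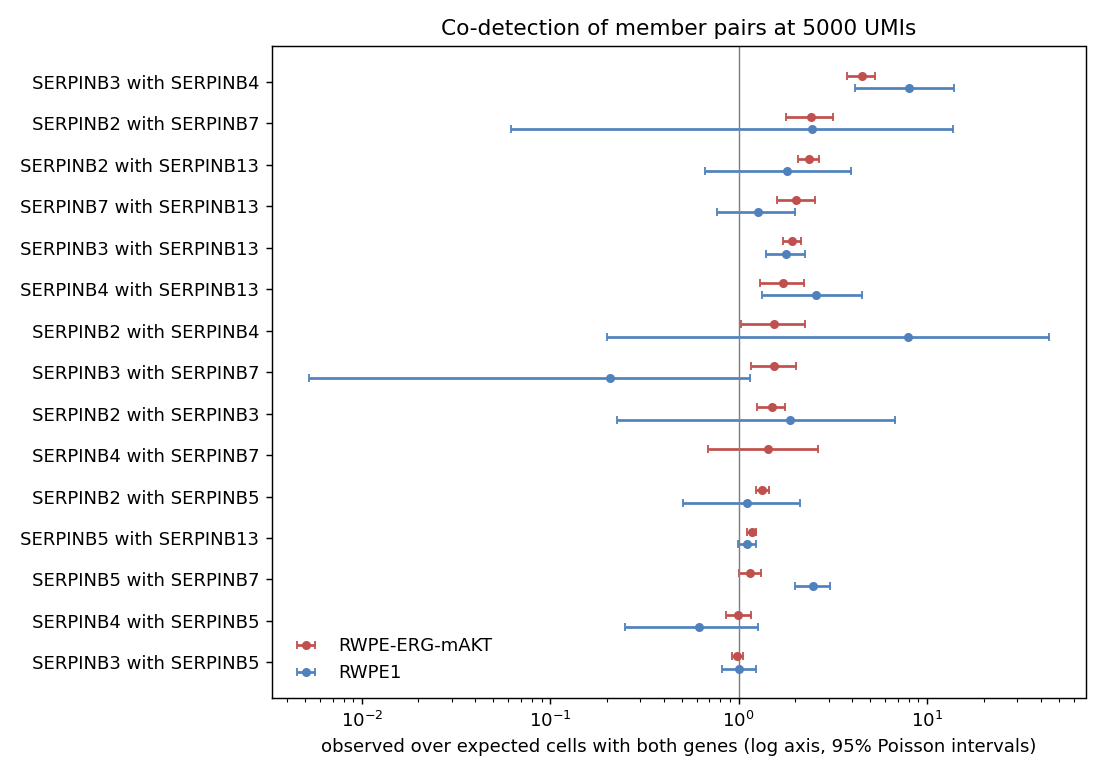
Cells with both genes of each member pair, over the number expected from the 2 shares (log axis, 95% Poisson intervals), at 5000 UMIs per cell, in RWPE-ERG-mAKT (red) and RWPE1 (blue); the RWPE1 point of SERPINB4 with SERPINB7 is left out, as 0 cells held both. SERPINB3 with SERPINB4 lies highest in RWPE-ERG-mAKT (4.49), and SERPINB3 with SERPINB5 lies near 1 in both (0.985 and 1.01).

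Cells with 3 or more members were more frequent than independent detection would give. In RWPE-ERG-mAKT 594 cells, or 4.20%, held at least 3, where 294 would follow from the shares, and 101 cells held at least 4, where 15.6 would follow. In RWPE1 45 cells, or 0.451%, held at least 3, where 19.3 would follow, and 2 cells held at least 4. A single RWPE-ERG-mAKT cell held all 6. Cells with 0 members made up 32.5% of RWPE-ERG-mAKT and 62.4% of RWPE1. Doublets were not called, and their part in these counts was not tested. Other sets of genes were not counted in this way, so the counts have no background.

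The genes most like a member across cells were taken for SERPINB5 and SERPINB13, the 2 members found in at least 5% of thinned cells of both libraries, by the mean of r over the 2 libraries. By it SERPINB5 was most like KRT6A, a keratin of wounded and hyperproliferative epidermis, with r of 0.24 in RWPE-ERG-mAKT and 0.32 in RWPE1. The basal keratin KRT14 (0.23 and 0.25) and the growth factor carrier FGFBP1 (0.15 and 0.28) followed. KRT6A itself had 2378 CPM in RWPE-ERG-mAKT and 167 CPM in RWPE1, a log2 ratio of 3.83. SERPINB13 was most like PERP, a desmosome protein (0.22 and 0.12), the fatty acid binder FABP5 (0.26 and 0.05) and FXYD3 (0.17 and 0.13). Within a single library other genes could lead, such as KRT17 with SERPINB5 in RWPE-ERG-mAKT (0.29) and HSPB1 with SERPINB13 in RWPE1 (0.14), both named after their values were seen. Over the 7791 autosomal genes compared in RWPE-ERG-mAKT, 99% had an r of 0.098 or less with SERPINB5 and of 0.064 or less with SERPINB13. These values are across cells of 1 library and share its depth of 5000 UMIs.

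Genes of squamous differentiation did not form 1 block in these lines. Of 28 tested genes of the list, 13 exceeded 2-fold upward in RWPE-ERG-mAKT and 7 were more than 2-fold lower, with a median log2 ratio of 0.77. Over all genes tested 11.1% were more than 2-fold higher and 18.8% more than 2-fold lower. KRT6A, the calmodulin-like CALML3 (27.0 CPM in RWPE-ERG-mAKT and 7.71 CPM in RWPE1, 1.81) and the calprotectin subunit S100A9 (204 CPM and 72.1 CPM, 1.497) were higher. KRT13, a keratin of inner stratified epithelia, was lower, with 7.04 CPM in RWPE-ERG-mAKT and 215 CPM in RWPE1 (-4.93). Summed per cell, the list had an r of 0.34 with the sum of the 6 members in RWPE-ERG-mAKT and 0.21 in RWPE1. KRT6A alone held 535430 of the list's 755268 UMIs in the kept RWPE-ERG-mAKT cells, and 32181 of 174393 in RWPE1. In RWPE-ERG-mAKT the list's sum thus mostly reads KRT6A. For the list of basal genes r was 0.20 in RWPE-ERG-mAKT and 0.24 in RWPE1. SERPINB5 makes up most of the members' sum, and in RWPE-ERG-mAKT the basal list had an r of 0.27 with SERPINB5 but -0.09 with SERPINB3, -0.07 with SERPINB4 and -0.02 with SERPINB7. With the squamous list the members of RWPE-ERG-mAKT ranged from 0.04 for SERPINB4 to 0.26 for SERPINB5. For G2/M genes the r with the sum was -0.05 in RWPE-ERG-mAKT and -0.10 in RWPE1. Hypoxia and glycolysis genes had an r of 0.15 in RWPE-ERG-mAKT and -0.06 in RWPE1.

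The members were then compared between cells with and without a UMI of each of 14 squamous genes that at least 100 thinned cells of each library held. SERPINB13 was higher in the cells with the squamous gene, with intervals that did not overlap, for 10 of 14 genes in RWPE-ERG-mAKT and for 8 of 14 in RWPE1, and was lower for 0 in both. SERPINB2 was higher for 9 of 14 in both libraries, in RWPE1 from only 30 positive cells. SERPINB3 was higher for 4 in RWPE-ERG-mAKT and 5 in RWPE1, and SERPINB4 for 2 and 3. SERPINB7 was higher for 4 and lower for 2 in RWPE-ERG-mAKT, and higher for 3 and lower for 1 in RWPE1. SERPINB5 was higher for 9 in RWPE-ERG-mAKT, and higher for 7 and lower for 1 in RWPE1. The counts were made on the same cells, so they are not independent of each other. No share over all genes is given for these splits, so the counts have no background and do not show the members to be special.

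Cells with SPRR1B, a cornified envelope precursor picked out after its values were seen, show the pattern for SERPINB13. In RWPE-ERG-mAKT 27.8% (25.3 to 30.3) of 1301 SPRR1B-positive cells held SERPINB13, against 9.65% (9.14 to 10.2) of the others, and in RWPE1 27.96% (22.0 to 34.5) of 211 did, against 10.7% (10.1 to 11.3). The shares were alike in the 2 lines. For SERPINB2 they were not, with 11.9% (10.2 to 13.8) of SPRR1B-positive cells against 5.59% (5.20 to 6.01) of the others in RWPE-ERG-mAKT, and 5.69% (2.97 to 9.72) against 0.185% (0.109 to 0.291) in RWPE1, where SERPINB2 was rare outside such cells.

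For SERPINB5 and SERPINB7, KRT6A and KRT13 split RWPE1 cells in opposite ways. Of 3400 KRT6A-positive RWPE1 cells 39.6% (38.0 to 41.3) held SERPINB5, against 20.4% (19.5 to 21.4) of the others, and 3.21% (2.64 to 3.85) held SERPINB7, against 0.396% (0.259 to 0.580). Of 3229 KRT13-positive RWPE1 cells 21.3% (19.9 to 22.8) held SERPINB5, against 29.7% (28.6 to 30.8) of the others, and 0.526% (0.307 to 0.842) held SERPINB7, against 1.75% (1.45 to 2.09). SERPINB13 was more frequent with both, in 13.9% (12.8 to 15.2) of KRT6A-positive RWPE1 cells, against 9.61% (8.91 to 10.3), and in 12.4% (11.3 to 13.6) of KRT13-positive ones, against 10.4% (9.71 to 11.2). SERPINB4 was in 0.960% (0.653 to 1.36) of KRT13-positive RWPE1 cells, against 0.163% (0.0815 to 0.292) of the others. In RWPE-ERG-mAKT KRT6A was in 13731 of 14134 cells, so few cells were left to compare.

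**Figure D5:**
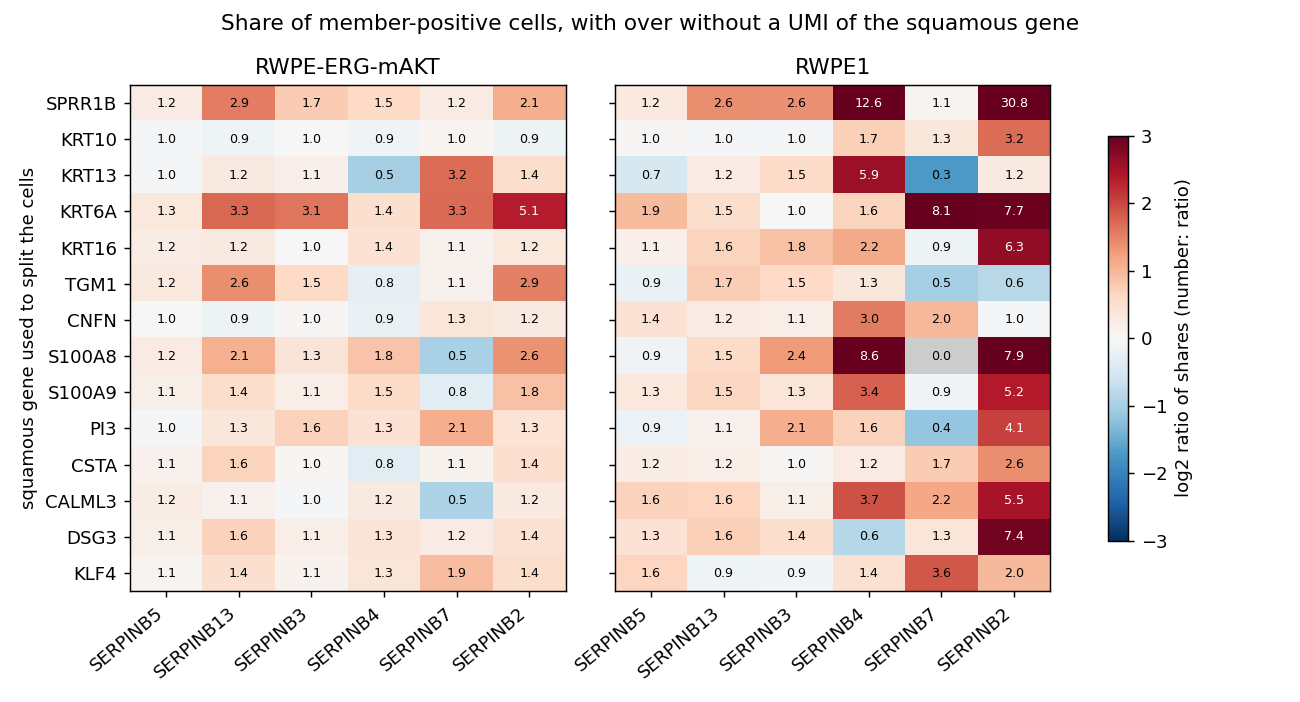
Share of cells with a UMI of the member among cells with the squamous gene of that row, divided by the share among cells without it, at 5000 UMIs per cell, in RWPE-ERG-mAKT (left) and RWPE1 (right); numbers are the ratios, colours their log2 on a scale from -3 to 3, and grey marks a ratio of 0. SERPINB13 stands at 2.9 and 2.6 in the SPRR1B row, and SERPINB5 at 1.9 in the KRT6A row and 0.7 in the KRT13 row of RWPE1.

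AP-1 genes were read because of the letters in the promoters. Of 12 tested genes of the AP-1 and immediate early list 8 exceeded 2-fold upward in RWPE-ERG-mAKT, against 11.1% of all genes tested. None was more than 2-fold lower, against 18.8%, and the median log2 ratio was 1.42. This was not particular to AP-1. Of 15 NF-kB target genes 11 were more than 2-fold higher (median 2.79), and of 12 interferon response genes 6 were (median 1.10). Of 10 ERK output genes 1 was more than 2-fold higher and 7 were more than 2-fold lower (median -1.29). IER2 had 652 CPM in RWPE-ERG-mAKT and 57.8 CPM in RWPE1 (3.497), JUN had 205 CPM and 28.3 CPM (2.86), ATF3 had 70.4 CPM and 13.7 CPM (2.36) and DUSP1 had 199 CPM and 54.7 CPM (1.86). Across cells of 1 library the AP-1 and immediate early list had an r to the members' sum of -0.09 in RWPE-ERG-mAKT and 0.06 in RWPE1. For the NF-kB target list it was 0.06 in RWPE-ERG-mAKT and 0.07 in RWPE1. A part of AP-1 in the members' levels was not tested.

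Last, members were compared between RWPE-ERG-mAKT cells in which ERG RNA was found and those in which it was not, at 5000 UMIs. SERPINB2 was in 4.92% (3.82 to 6.22) of 1322 cells with ERG, against 6.31% (5.89 to 6.74) of the others. SERPINB5 was in 55.4% (52.7 to 58.1) of them, against 58.8% (58.0 to 59.7), and SERPINB3 in 9.53% (8.002 to 11.2), against 10.5% (9.97 to 11.04). SERPINB13 was in 10.8% (9.19 to 12.6), against 11.4% (10.8 to 11.9). SERPINB4 was in 2.72% (1.91 to 3.75), against 2.01% (1.77 to 2.26), and SERPINB7 in 2.57% (1.79 to 3.58), against 2.36% (2.10 to 2.63). The intervals of cells with and without a detected ERG UMI overlapped for all 6 members, for SERPINB5 only narrowly. Such overlap does not show the shares to be equal. The shares of SERPINB2, SERPINB3, SERPINB5 and SERPINB13 were lower in cells with ERG, and those of SERPINB4 and SERPINB7 were higher. At 20.8 CPM most cells that express ERG give no ERG UMI at this depth, so cells without one are not cells without ERG.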

How the data were processed

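Droplet 3′ libraries of RWPE-ERG-mAKT and RWPE1 were made with 10000 input cells each, and per the submitters' processing notes the authors counted UMIs with Cell Ranger 7.1.0 on hg38. The deposited values are raw UMI counts per gene and barcode. Cells with more than 2500 genes and under 7.5% mitochondrial UMIs were used here, since the study's limits of 200 to 2500 genes keep only 2775 RWPE-ERG-mAKT and 362 RWPE1 cells. Counts were summed per library and given as CPM with exact Poisson intervals, ratios with exact conditional intervals and shares with Clopper-Pearson intervals. For counts of cells, cells were thinned without replacement to 5000 UMIs (seed 1), and a pair's expected number was the product of both shares. With 1 library per line no edgeR or other test was made. Doublets were not called. The members and lists were chosen with earlier results of these data known. The genes named are all members, all other clade B serpins and target proteases, the 3 genes most like SERPINB5 and SERPINB13, and up to 4 genes of a list with at least 20 CPM and the largest absolute log2 ratios. A planned comparison of proteins was made on coding bases instead. Gene positions came from GENCODE 29, which held 34616 of the 36601 identifiers. The ratio and thinning steps were tested on simulated data. Scripts ran in Python 3.11.15 with scipy 1.17.1, numpy 2.4.6, matplotlib 3.10.9 and pandas 2.3.3.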

Additional observations from a re-analysis of the deposited data

Results flagged for a closer look

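The barcodes left out of the comparison, 3215 of RWPE-ERG-mAKT and 2537 of RWPE1, also held the members. For 5 of 6 the level in RWPE-ERG-mAKT lay above that in RWPE1. No share over all genes is given for these barcodes, so this count has no background. SERPINB2 had 13.2 CPM in RWPE-ERG-mAKT and 1.51 CPM in RWPE1, SERPINB3 had 34.4 CPM and 8.19 CPM, and SERPINB4 had 6.79 CPM and 0.652 CPM. SERPINB5 had 202 CPM in RWPE-ERG-mAKT and 64.4 CPM in RWPE1, and SERPINB7 had 5.17 CPM and 1.47 CPM. SERPINB13 went the other way, with 23.5 CPM (20.9 to 26.4) in RWPE-ERG-mAKT and 36.4 CPM (34.03 to 38.8) in RWPE1. In those of them left out for mitochondrial UMIs alone it was higher in RWPE-ERG-mAKT, with a log2 ratio of 1.16 (0.83 to 1.47). These held 92 of its 291 left-out UMIs in RWPE-ERG-mAKT and 819 of 893 in RWPE1. The barcodes left out differed in kind, since 3108 had 2500 genes or fewer in RWPE-ERG-mAKT but 962 in RWPE1, and 107 and 1575 were left out for mitochondrial UMIs alone.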

How the results depend on the processing

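The number of members more than 2-fold higher stayed between 4 and 6 in 10 of 11 alternatives, and 0 were more than 2-fold lower in all 11. With the study's own limits of 200 to 2500 genes it was 2, with a median log2 ratio of 0.89, and SERPINB13 turned to -0.82 (-1.42 to -0.17) and SERPINB2 had 0.20 (-0.90 to 1.55), from 97 and 7 UMIs, against 4.52 in the cells used. There SERPINB13 had 177 UMIs in RWPE-ERG-mAKT and 26 in RWPE1, and SERPINB4 75 and 0. With 3 counts set in place of that 0 SERPINB4 was 2.07-fold higher, and 1 of the 2 members over 2-fold there rests on this setting. The median of 1.73 became 2.36 in cells with 7.5% or more mitochondrial UMIs, 1.67 without the 5% deepest cells, 1.87 with median-of-ratios scaling, 1.61 as a mean over cells, 1.79 without the 1% of cells with most of each gene, and 1.62 with 1 CPM added. Without its 1% of cells SERPINB2 had 3155 UMIs in RWPE-ERG-mAKT and 0 in RWPE1. In RWPE1 that 1% is 100 cells and only 93 were positive, so the 0 was fixed by the cut and is no check. The cut also takes a larger part of the positive cells where fewer are positive, and with it the log2 ratio of SERPINB4 was 3.71. The share of positive cells was higher in RWPE-ERG-mAKT for 6 of 6 members at 5000 and 2000 UMIs and for 5 at 10000 UMIs, where the log2 ratio of SERPINB13 was -0.01. The median pair correlation in RWPE-ERG-mAKT was 0.032 at 2000 UMIs and 0.073 at 10000, and that in RWPE1 was -0.0017 at 2000. Of 88 values of single members under an alternative 86 were above 0 and 2, both of SERPINB13, below. The causes were not tested. No paired analysis was possible because each line had 1 library. SERPINB2 and SERPINB4, with 173 and 176 UMIs in RWPE1, are limited most by depth.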
